A study of Mus musculus with 12 samples.

Results

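A set of 10 genes that mark the choroid plexus was followed in bulk arrays of mouse striatum: Ttr, Kcnj13, Clic6, Slc4a5, Aqp1, Cldn2, Folr1, Kl, Otx2 and Sostdc1. The set was chosen with earlier results of these data known. Its probe sets were taken by name, as those that the platform table pairs with 1 of these symbols alone. Each gene had 1 such probe set, so that the members made up 10 of the 19248 genes tested. By the RefSeq gene table (GRCm38.p6) the genes lie apart in the genome, with Ttr on chromosome 18, Kcnj13 on chromosome 1, Clic6 on chromosome 16, Slc4a5 on chromosome 6, Aqp1 on chromosome 6, Cldn2 on chromosome X, Folr1 on chromosome 7, Kl on chromosome 5, Otx2 on chromosome 14 and Sostdc1 on chromosome 12. The 12 mice were 8 weeks old and formed 4 groups of 3. NT_p62WT mice carried no Huntington's disease (HD) transgene and had normal p62, the autophagy receptor encoded by Sqstm1. NT_p62KO mice carried no HD transgene and lacked p62. HD_p62WT mice carried the HD transgene with normal p62, and HD_p62KO mice carried the HD transgene and lacked p62. The labels used here do not name the HD line, its promoter, the strain or the litter, and they give no treatment for any group. The cross addressed how p62 loss changes gene expression in the HD model.

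The choroid plexus is the folded epithelium that hangs in the brain ventricles, rests on a stroma rich in vessels and secretes cerebrospinal fluid. It is not part of the striatum, but the striatum forms a wall of the lateral ventricle, where this epithelium lies. Its cells make transthyretin in large amounts, carry ions and water from blood to ventricle and pass folate into the fluid. A striatal dissection may therefore carry some of it, and these genes serve as markers of how much of its RNA a sample holds. In bulk tissue, fewer cells of a type and less RNA per cell cannot be told apart. The labels say only that samples were dissected and frozen, and the part of dissection in the values below was not tested.

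Expression was measured on 1 array per mouse and is given on the log2 scale for each probe set, so that a difference of 1 is a 2-fold difference. The array medians lay between 7.70 and 7.73, and the 3 arrays of a group correlated at 0.990 to 0.996. Precision is limited by the number of arrays, 3 in each group. Sqstm1 was at 11.26 ± 0.079 (SD, n = 3) in NT_p62WT and 8.49 ± 0.038 in NT_p62KO, and at 11.51 ± 0.25 in HD_p62WT and 9.02 ± 0.10 in HD_p62KO, so each library went with its p62 label. Among markers of the labelled tissue, the opioid peptide gene Penk averaged 12.84 over the 12 mice. Levels were not set against each other between genes, since probe sets differ in their response.

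Ttr encodes transthyretin, the thyroid hormone and retinol carrier that choroid plexus epithelium secretes into cerebrospinal fluid. In NT_p62WT mice its log2 values were 8.48, 9.97 and 9.60. In NT_p62KO mice they were 11.58, 11.58 and 11.70. All 3 values without p62 lay above all 3 with it, and the NT_p62KO mice differed among themselves by no more than 0.12 (1.09-fold). In HD_p62WT mice the values were 11.75, 10.78 and 8.58, and in HD_p62KO mice 8.36, 12.21 and 11.32. The HD groups overlapped fully. They held both the lowest and the highest Ttr value of the study, and the 3 HD_p62KO mice spanned 3.85 on the log2 scale (14.4-fold), the 3 HD_p62WT mice 3.18 (9.03-fold). The means were 9.35 ± 0.78 (SD, n = 3) in NT_p62WT, 10.37 ± 1.63 in HD_p62WT, 10.63 ± 2.01 in HD_p62KO and 11.62 ± 0.070 in NT_p62KO. Neighbours in this order differed by less than the spread of the HD groups.

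**Figure D1:**
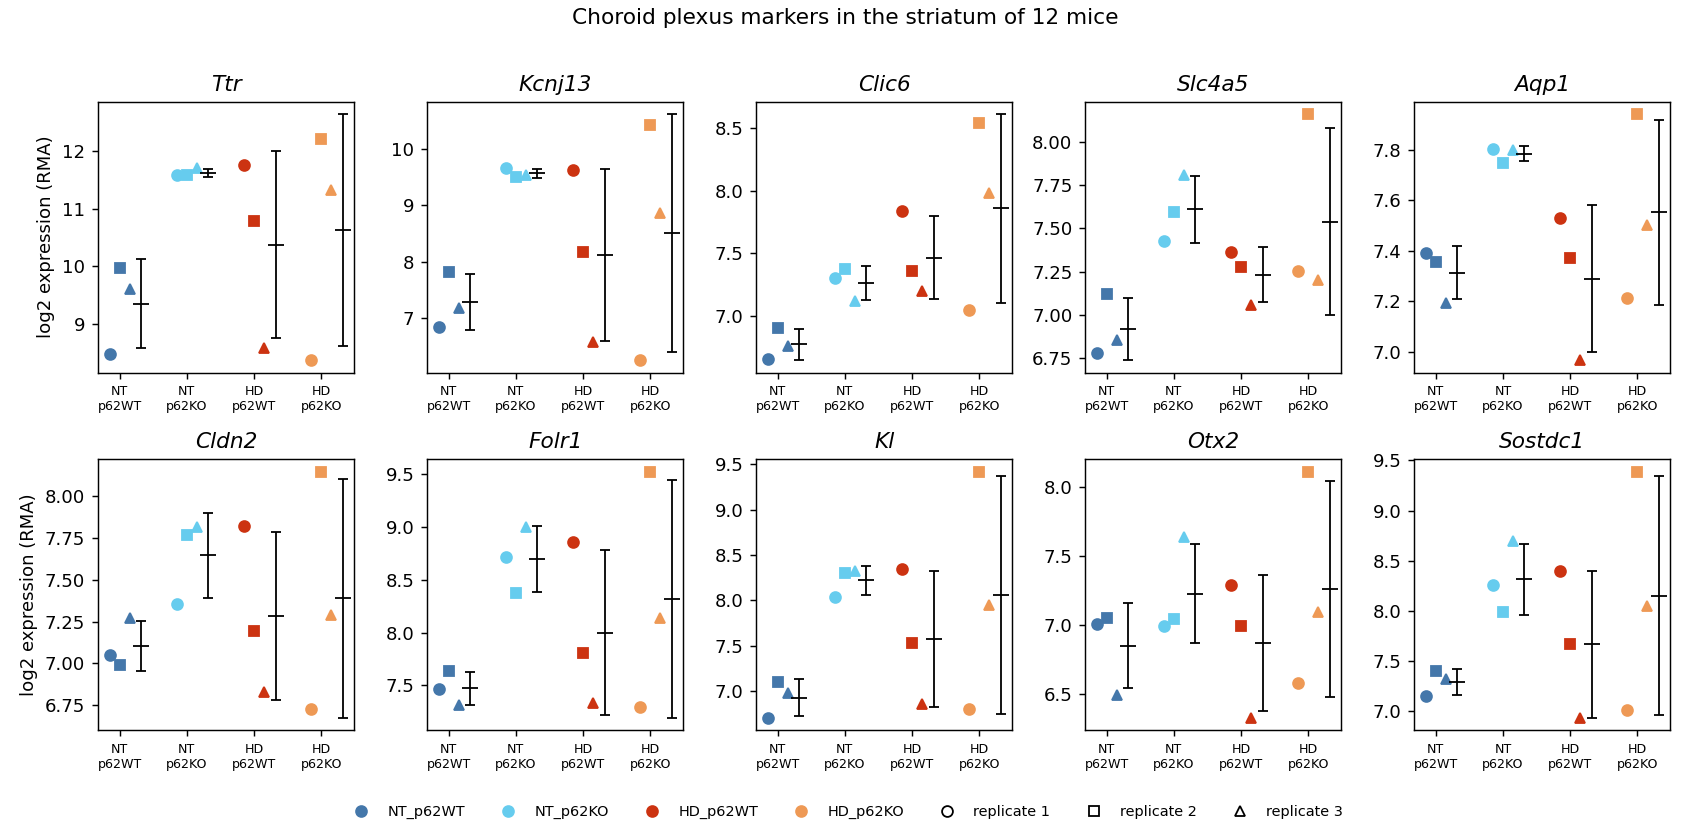
Log2 expression (y axis) of each of the 10 choroid plexus markers in each of the 12 mice, by group (x axis), with points for single mice and the mean and SD of each group of 3. The NT_p62KO mice lay close together for Ttr, between 11.58 and 11.70, while the 3 HD_p62KO mice ran from 8.36 to 12.21.

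Kcnj13, Clic6, Slc4a5 and Aqp1 move ions or water across the epithelium. Kcnj13 encodes Kir7.1, an inwardly rectifying potassium channel of the apical membrane. Its values were 6.84, 7.82 and 7.19 in NT_p62WT and 9.67, 9.51 and 9.54 in NT_p62KO. In HD_p62WT they were 9.62, 8.17 and 6.58, and in HD_p62KO 6.25, 10.43 and 8.87. The order of the mice was close to that of Ttr, with a span of 4.18 (18.1-fold) among the HD_p62KO mice, the widest of the 10 genes. Clic6, a member of the chloride intracellular channel family, was at 6.65, 6.90 and 6.76 in NT_p62WT and at 7.31, 7.38 and 7.12 in NT_p62KO. It was at 7.84, 7.36 and 7.20 in HD_p62WT and at 7.05, 8.55 and 7.99 in HD_p62KO. Here the 3 NT_p62WT mice were the lowest of all 12, below every HD mouse.

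Slc4a5 encodes the electrogenic sodium bicarbonate cotransporter NBCe2. It was at 6.78 to 7.12 in NT_p62WT, 7.43 to 7.81 in NT_p62KO, 7.06 to 7.36 in HD_p62WT and 7.20 to 8.16 in HD_p62KO. Aqp1 encodes aquaporin 1, the water channel of the apical membrane, and is also found in other tissues. It was at 7.19 to 7.39 in NT_p62WT, 7.75 to 7.81 in NT_p62KO, 6.97 to 7.53 in HD_p62WT and 7.21 to 7.94 in HD_p62KO. Both genes had a range of less than 1.5 over the 12 mice, against 3.85 for Ttr.

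Cldn2 encodes claudin 2, the tight junction protein that lets cations and water pass between epithelial cells. It was at 6.99 to 7.27 in NT_p62WT, 7.36 to 7.82 in NT_p62KO, 6.83 to 7.82 in HD_p62WT and 6.73 to 8.15 in HD_p62KO. Folr1 encodes folate receptor alpha, which brings folate through the epithelium. Its values were 7.46, 7.64 and 7.31 in NT_p62WT, 8.71, 8.38 and 9.001 in NT_p62KO, 8.86, 7.81 and 7.34 in HD_p62WT and 7.30, 9.53 and 8.13 in HD_p62KO. Kl encodes klotho, a membrane protein that acts as a coreceptor for the hormone FGF23. It was at 6.71, 7.10 and 6.98 in NT_p62WT, 8.04, 8.31 and 8.32 in NT_p62KO, 8.34, 7.53 and 6.85 in HD_p62WT and 6.80, 9.42 and 7.95 in HD_p62KO. For these 3 genes the NT_p62KO mice were again above all NT_p62WT mice, and the HD groups overlapped.

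Otx2 encodes a homeodomain transcription factor required for choroid plexus development. It was at 7.01, 7.05 and 6.50 in NT_p62WT, 6.998, 7.05 and 7.64 in NT_p62KO, 7.29, 6.99 and 6.33 in HD_p62WT and 6.58, 8.11 and 7.10 in HD_p62KO. It was the 1 member whose values overlapped between NT_p62WT and NT_p62KO. Sostdc1, a secreted antagonist of BMP and Wnt signals, was at 7.15 to 7.40 in NT_p62WT, 7.99 to 8.69 in NT_p62KO, 6.93 to 8.40 in HD_p62WT and 7.01 to 9.39 in HD_p62KO.

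The same mice stood at the ends for most members. HD_p62KO replicate 2 was the highest of the 12 mice for 10 of the 10 genes. HD_p62WT replicate 1 and NT_p62KO replicate 3 were among the 3 highest for 8 genes each. At the low end, HD_p62WT replicate 3 was among the 3 lowest for 9 genes, HD_p62KO replicate 1 for 8 and NT_p62WT replicate 1 for 6. High and low mice therefore occurred within both HD groups.

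Promoter sequence is shown for 3 members that moved closely with Ttr (below), to print side by side what lies before their starts. The RefSeq promoter table (GRCm38.p6) covers 250 bases before to 50 after each start. Windows on the chromosome of Ttr were left out for the members, so Ttr was not read. On the other chromosomes the table held windows for 6 of the 10 members. The 250 bases before the start are printed 5′ to 3′ on the gene's strand, with the letters TATAAA in capitals where present. Kcnj13 lies at chr1:87394730-87394979 on the minus strand, Kl at chr5:150952357-150952606 on the plus strand and Cldn2 at chrX:139800558-139800807 on the plus strand.
Kcnj13: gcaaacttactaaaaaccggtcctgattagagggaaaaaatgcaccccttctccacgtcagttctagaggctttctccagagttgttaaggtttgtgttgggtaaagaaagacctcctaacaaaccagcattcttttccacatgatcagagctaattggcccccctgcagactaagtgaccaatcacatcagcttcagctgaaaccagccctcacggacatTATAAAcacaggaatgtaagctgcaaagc
Kl: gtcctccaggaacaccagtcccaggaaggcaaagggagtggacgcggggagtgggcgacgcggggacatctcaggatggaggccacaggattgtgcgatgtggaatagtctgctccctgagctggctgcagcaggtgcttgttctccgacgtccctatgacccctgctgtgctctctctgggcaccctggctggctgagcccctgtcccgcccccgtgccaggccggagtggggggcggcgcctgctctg
Cldn2: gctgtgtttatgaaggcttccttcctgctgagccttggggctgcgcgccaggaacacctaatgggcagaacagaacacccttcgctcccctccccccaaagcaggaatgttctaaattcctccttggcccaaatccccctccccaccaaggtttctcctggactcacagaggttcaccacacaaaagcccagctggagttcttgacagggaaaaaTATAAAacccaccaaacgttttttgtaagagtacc
Kcnj13 and Cldn2 each held TATAAA, 29 and 35 bases before the start, with the motif searched on both strands. Of 32851 windows in the table, 13.6% held it anywhere in their 300 bases. Slc4a5 and 1 of the 4 windows of Otx2 held it too, at -127 and -192 from the start. Kl had no match in its stretch, which was richer in CpG (13 against 3 in Kcnj13 and 4 in Cldn2). TAATCC, the core bound by OTX and other bicoid-class homeodomain proteins, was found in 1 of the 9 windows of the 6 members, 1 of the 4 windows of Otx2 itself, against 7.06% of all windows. These matches describe letters and not binding.

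The 10 markers rose and fell together from mouse to mouse. Over the 12 mice the 45 pairs of members had Pearson correlations from 0.540 (Clic6 with Aqp1) to 0.981 (Ttr with Kcnj13), with a median of 0.875 and 0 pairs below 0. The points share their arrays, and any difference in plexus RNA between mice is common to all genes. Taken as deviations from the group means, the pairs ran from 0.646 to 0.982 with a median of 0.885. The median was 0.934 in the 6 HD mice and 0.894 in the 6 non-transgenic mice. Without HD_p62KO replicate 2 the lowest pair, again Clic6 with Aqp1, was at 0.319 and the median at 0.820. A first principal component took 92.6% of the variance of the 10 centred genes, and 86.5% once each gene was also scaled.

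**Figure D2:**
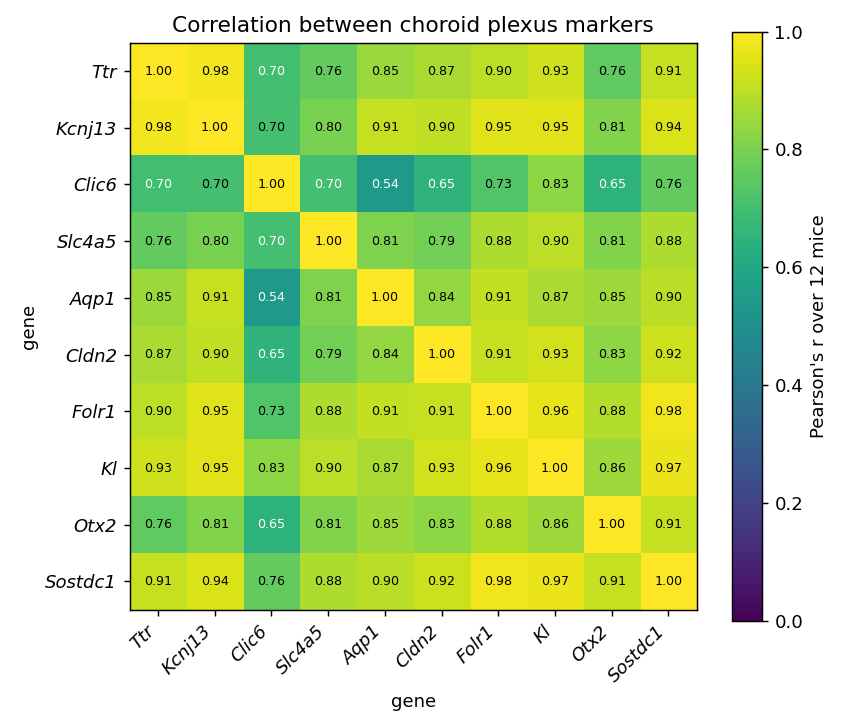
Pearson correlation over the 12 mice for each pair of the 10 choroid plexus markers (both axes list the genes, and the colour scale runs from 0 to 1). All pairs were above 0, and Clic6 gave the lowest values, down to 0.540 with Aqp1.

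Each of the 9 other members was compared with Ttr over the 12 mice (9 relations, with permutation p-values that are not adjusted). Kcnj13 was closest, with r = 0.981 and Spearman's rho = 0.951 (permutation p = 1e-05 for r, the smallest that 100000 permutations give). Kl followed with r = 0.926 and rho = 0.993. Sostdc1 had r = 0.912, Folr1 0.900, Cldn2 0.873 and Aqp1 0.851, with rho of 0.951, 0.958, 0.951 and 0.832. The lowest were Slc4a5 (r = 0.759, rho = 0.832; permutation p = 0.00274 for r), Otx2 (r = 0.755, rho = 0.790; p = 0.00246) and Clic6 (r = 0.699, rho = 0.741; p = 0.00975). The 2 mice farthest from the median of Ttr were HD_p62KO replicate 1 and NT_p62WT replicate 1. Without them the 9 correlations ran from 0.635 for Clic6 to 0.980 for Kcnj13. In the 6 HD mice alone Kcnj13 had r = 0.983 and in the 6 non-transgenic mice 0.981 (exact permutation p = 0.00139 and 0.00556), whereas Slc4a5 had 0.630 and 0.943 (exact p = 0.154 and 0.00972) and Otx2 0.887 and 0.507 (exact p = 0.00417 and 0.246). Against all other genes measured, 62 genes outside the 10 (0.322%) had an r with Ttr of at least the 0.699 of Clic6, and the median over all genes was 0.00060.

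**Figure D3:**
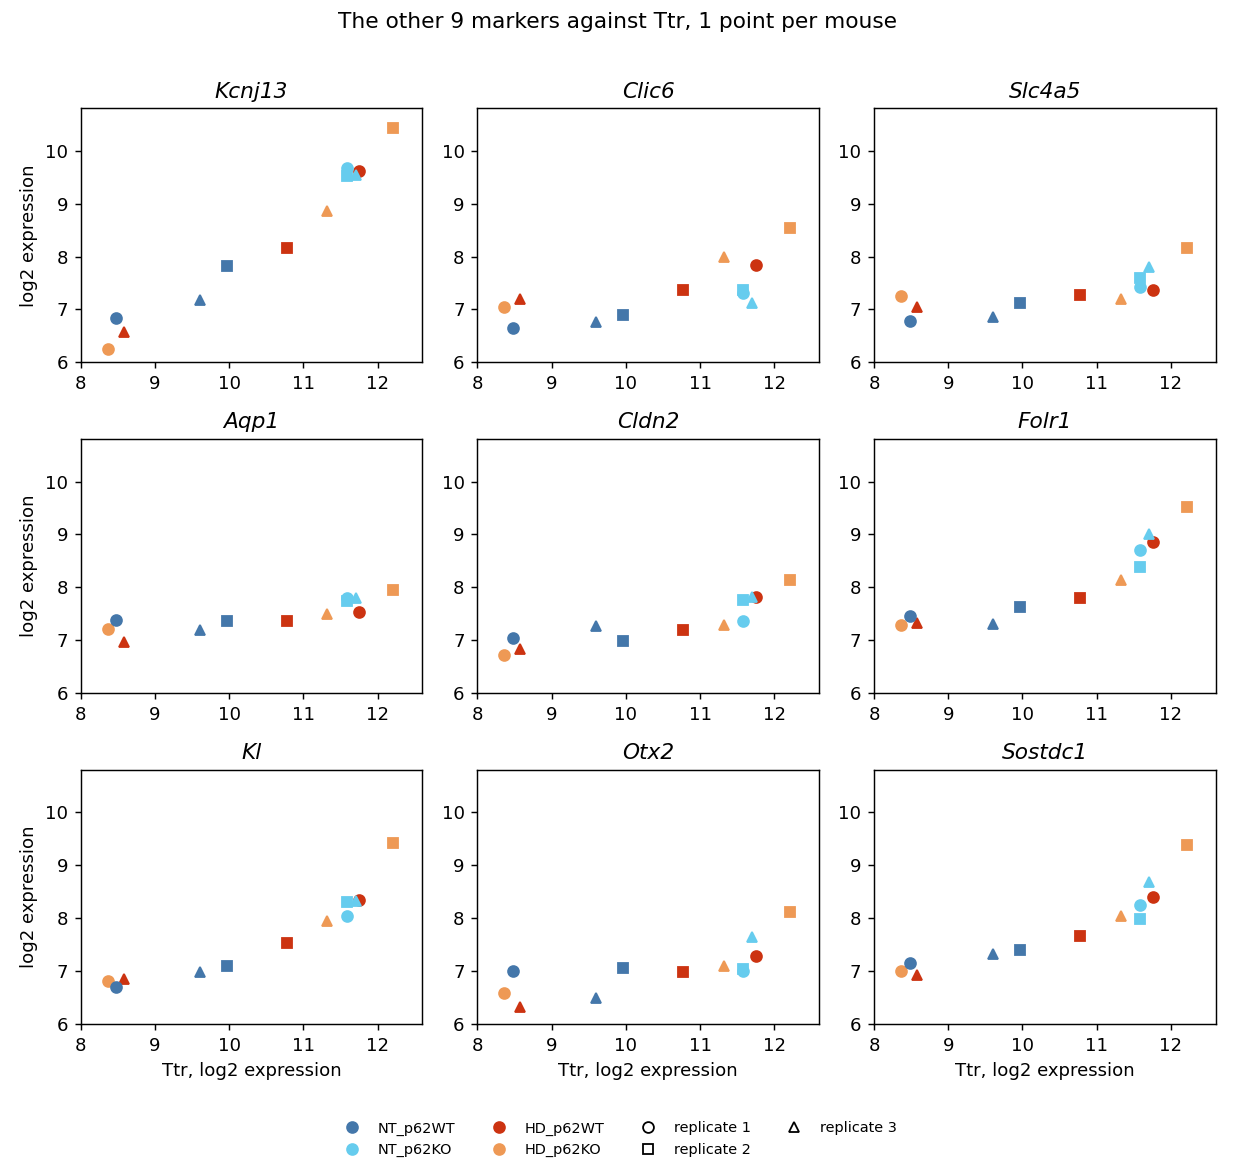
Log2 value of each of the other 9 markers (y axis) against that of Ttr (x axis) in the 12 mice, coloured by group. Kcnj13 followed Ttr most closely (r = 0.981), and the HD mice lay above the non-transgenic mice at like Ttr values for Clic6.

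To test this within groups, a slope on Ttr was fitted to every other gene beside the 4 group means (limma, Benjamini-Hochberg over 19247 genes). Within groups Ttr had an SD of 2.01 in HD_p62KO, 1.63 in HD_p62WT, 0.78 in NT_p62WT and 0.070 in NT_p62KO. The slope therefore rests mostly on the HD mice. Kcnj13 was the 1 gene called, with a slope of 0.95 ± 0.070 (SE, adjusted p = 0.000444), close to 1 log2 unit per unit of Ttr. That is 1 of 9 members, and 0.0052% of all genes were called positive and 0% negative. Without HD_p62KO replicate 1 its adjusted p was 0.0902 and 0 members were called, while without HD_p62KO replicate 2 or 3 the counts were 2 and 3. The other 8 slopes were smaller. Kl had 0.52 ± 0.070 (adjusted p = 0.0926), Sostdc1 0.48 ± 0.073 (0.104), Folr1 0.45 ± 0.084 (0.320), Otx2 0.30 ± 0.075, Cldn2 0.29 ± 0.058, Clic6 0.28 ± 0.044 (0.123), Aqp1 0.15 ± 0.033 and Slc4a5 0.15 ± 0.056. All 9 were positive, as were 53.3% of all genes, and 9 of 9 had an unadjusted p below 0.05, as had 3.71% of all genes. RMA values of dim probe sets are compressed, so the steepness of a slope is not a ratio of RNA amounts. With no group means in the fit, 9 genes were called (0.0468%), 5 of them members: Kcnj13, Kl, Sostdc1, Folr1 and Cldn2. With the mean of the 10 members in place of Ttr, beside the group means, 16 of the other genes were called (0.0832%).

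Loss of p62 in non-transgenic mice went with higher values of the plexus markers, but no member passed the test. Ttr was higher by 2.27 ± 0.90 on the log2 scale (SE, 3 mice per group, 4.84-fold; limma, adjusted p = 0.999711), with a 95% interval of 0.32 to 4.23. The exact permutation test gave p = 0.1, two-sided, the smallest that 3 against 3 mice allow. Kcnj13 was higher by 2.29 ± 0.88, Kl by 1.29, Folr1 by 1.23, Sostdc1 by 1.02 and Slc4a5 by 0.69 ± 0.21. Cldn2, Clic6, Aqp1 and Otx2 were higher by 0.54, 0.49, 0.47 and 0.38. Of the 10 members 0 were called and 0.0052% of all genes were, which is Sqstm1 alone. Unadjusted p was below 0.05 for 6 of 10, as for 3.32% of all genes. In 9 of 10 the 3 NT_p62KO mice lay above the 3 NT_p62WT mice, as in 3.88% of all genes. The members rose and fell together in the same mice, so these counts are not independent observations. The median member difference was 0.86, against -0.0063 over all genes. The standard error came from all 4 groups, including the widely spread HD mice. With only the 2 non-transgenic groups in the fit, Kcnj13 and Kl were called (limma, both adjusted p = 0.0327) and Ttr was not (adjusted p = 0.175). The share of all genes called in that fit was not counted, so the 2 calls have no background beside them.

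In HD mice the same comparison gave smaller differences for 9 of the 10 members, and for Otx2 0.39 against 0.38. Ttr differed by 0.26 ± 0.90 between HD_p62KO and HD_p62WT (SE, 95% interval -1.69 to 2.22; limma, adjusted p = 0.999934). The 10 members differed by 0.11 to 0.48, all in the direction of the knockout, and all 10 overlapped between groups. Of them 0 were called (0.0052% of all genes) and 0 had an unadjusted p below 0.05 (2.88% of all genes). Of all genes, 3.26% had the 3 HD_p62KO mice fully above and 4.11% fully below the 3 HD_p62WT mice. The sign for Ttr turned with single mice, to -0.53, -0.08 and -0.63 without HD_p62KO replicate 2, HD_p62KO replicate 3 and HD_p62WT replicate 3. The interaction, which is the HD difference without p62 minus that with it, was -2.01 ± 1.27 for Ttr (limma, adjusted p = 0.991). It called 0 members and 0% of all genes, and 0 members had an unadjusted p below 0.05 (3.45% of all genes). For Ttr the interaction was -0.88 without HD_p62KO replicate 1 and -1.32 without HD_p62WT replicate 1, and reached -2.91 without HD_p62WT replicate 3. Averaged over HD status, p62 loss went with a Ttr difference of 1.27 ± 0.63 (exact permutation within HD status, p = 0.16 over 400 assignments). For this average all 10 members were higher and 0 were called, against 0.0104% of all genes, and 6 of 10 had an unadjusted p below 0.05, against 2.69% of all genes.

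**Figure D4:**
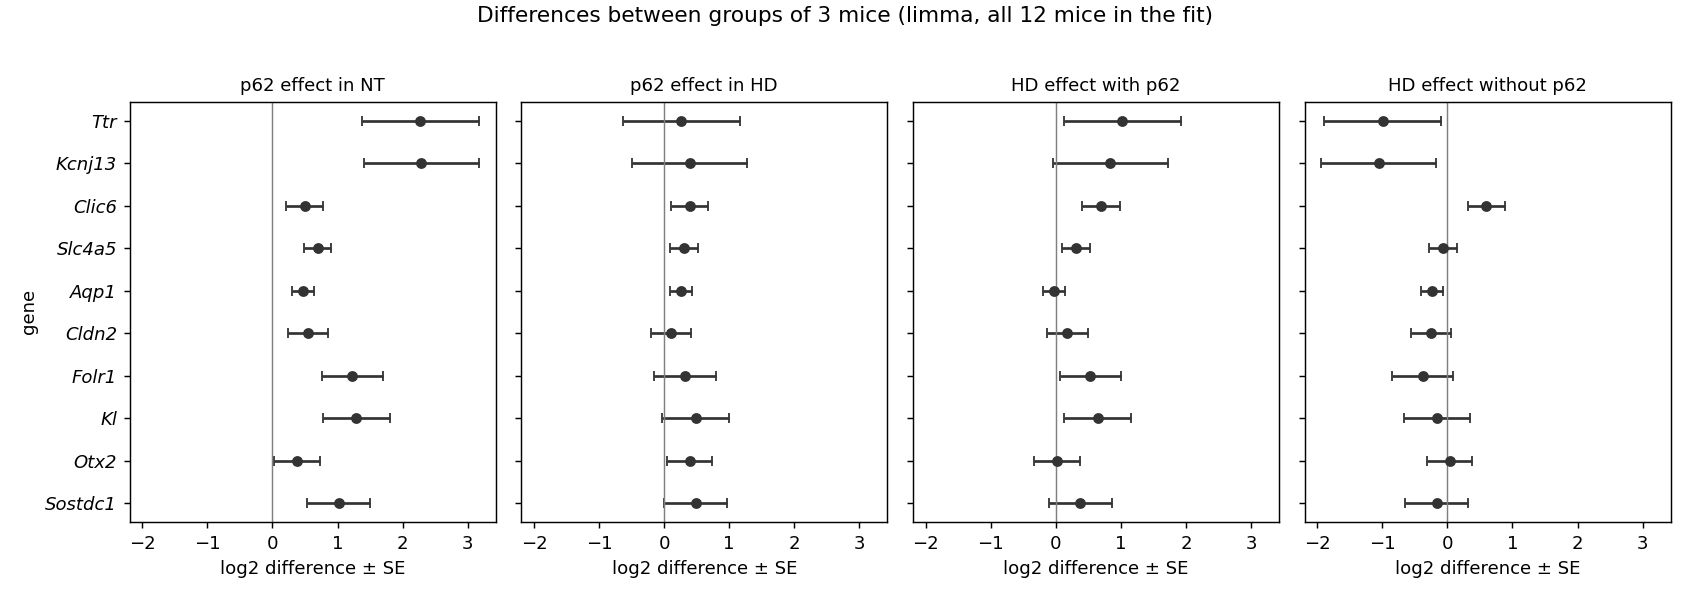
Log2 difference with its standard error (x axis) for each of the 10 markers (y axis) in the 4 comparisons of 2 groups of 3 mice, from the fit to all 12 mice. Differences for p62 loss in non-transgenic mice were all above 0, with 2.27 for Ttr and 2.29 for Kcnj13, and no difference shown passed the test.

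Between HD and non-transgenic mice, most members differed by less than their spread. With normal p62, Ttr was higher by 1.02 ± 0.90 in HD mice (SE, 95% interval -0.93 to 2.97; limma, adjusted p = 0.505). This was 0.33 without HD_p62WT replicate 1, 0.58 without NT_p62WT replicate 1 and 1.92 without HD_p62WT replicate 3. Without p62 it was lower by 0.99 ± 0.90 (95% interval -2.94 to 0.96; adjusted p = 0.422). These comparisons called 0 and 0 members, against 7.1% and 21.7% of all genes. Unadjusted p was below 0.05 for 1 and 0 members, against 25.4% and 38.8% of all genes. Without p62, 0 members had all 3 HD mice above the 3 non-transgenic mice, as had 22.3% of all genes. Without HD_p62KO replicate 1, the mouse with the lowest Ttr, the latter difference was 0.14. Averaged over p62 status, the HD difference of Ttr was 0.01 ± 0.63, with its sign depending on the mice included.

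Clic6 was the 1 member called, for the HD effect averaged over p62 status, and is followed further for that reason. As a share, 1 of 10 members is below that of all genes called, so the count does not set the members apart. It rose by 0.64 ± 0.20 on average in HD mice (SE, 1.56-fold; limma, adjusted p = 0.0280), 1 of 10 members, where 35% of all genes were called. With normal p62 the difference was 0.69 ± 0.29 (adjusted p = 0.152), and it was the 1 member whose 3 HD mice all lay above the 3 non-transgenic mice, as in 17.8% of all genes. Without p62 the difference was 0.59 ± 0.29 (adjusted p = 0.144). The average call was lost without any 1 of 6 mice, namely HD_p62KO replicate 2 or 3, HD_p62WT replicate 1, NT_p62KO replicate 3, or NT_p62WT replicate 1 or 3. Over the 12 single-mouse omissions the difference ran from 0.47 to 0.85 and the adjusted p from 0.00117 to 0.0707. With the spread of each array as a covariate the difference was 0.23 (adjusted p = 0.569).

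Mice with like Ttr values were compared for Clic6. HD_p62WT replicate 1 had Ttr at 11.75 and Clic6 at 7.84, and the 3 NT_p62KO mice had Ttr at 11.58 to 11.70 and Clic6 at 7.12 to 7.38. At the low end, NT_p62WT replicate 1 had Ttr at 8.48 and Clic6 at 6.65, while HD_p62KO replicate 1 and HD_p62WT replicate 3 had Ttr at 8.36 and 8.58 and Clic6 at 7.05 and 7.20. With Ttr as a covariate, Clic6 was higher in HD mice by 0.64 ± 0.097 on average (limma, adjusted p = 0.0012), by 0.88 ± 0.14 without p62 (adjusted p = 0.00497) and by 0.41 ± 0.14 with it (adjusted p = 0.143). The difference between the latter values was not called (0.47 ± 0.21, adjusted p = 0.842). No other member was called with that covariate. Of the 19247 genes in that fit, 6488 were called for the average HD effect, 4265 without p62 and 656 with it. In the p62 comparison of non-transgenic mice the other 9 members differed by -0.30 to 0.35 with that covariate, whose slope rests mostly on the HD mice.

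A further 32 genes known from choroid plexus epithelium were listed, with earlier results of these data known, and 28 had a probe set with 1 symbol. On the Ttr slope within groups 26 of 28 were positive and 17 had an unadjusted p below 0.05, with a median slope of 0.13, but 0 were called. Over all genes 53.3% were positive and 3.71% had an unadjusted p below 0.05, with a median slope of 0.0025. The coagulation factor gene F5 had 0.35 ± 0.048 (limma, adjusted p = 0.0926), and Stra6, a retinol transporter and the brightest of the list, had 0.02 ± 0.03 (adjusted p = 0.997). The mean of the list correlated with Ttr at r = 0.867 and rho = 0.930 over the 12 mice (permutation p = 0.00144 for r, adjusted over 8 measures), and at 0.872 without the 2 mice farthest from the median of Ttr. For p62 loss in non-transgenic mice 27 of 28 were higher, 16 of 28 had all 3 NT_p62KO mice above the NT_p62WT mice, 0 were called and 4 had an unadjusted p below 0.05, with a median difference of 0.28. Over all genes the shares were 47.1% higher, 3.88% fully above, 0.0052% called and 3.32% with an unadjusted p below 0.05. The listed genes come from the same mice and their mean followed Ttr, so these counts are not independent observations.

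Of these further genes, Car12 and Ace went the other way from Clic6 in HD mice, and both were singled out after their values were seen. Car12 encodes a membrane carbonic anhydrase and Ace the angiotensin-converting enzyme, and both are made outside the plexus too. Car12 was at 9.74, 9.74 and 9.72 in NT_p62WT, 10.04, 10.10 and 10.08 in NT_p62KO, 9.16, 8.56 and 8.62 in HD_p62WT and 8.20, 9.56 and 8.88 in HD_p62KO. All 6 HD mice lay below all 6 non-transgenic mice, and within each HD group the mouse with the highest Ttr also had the highest Car12. Car12 fell by 0.95 with normal p62 (SE 0.26; limma, adjusted p = 0.0463), fell by 1.19 without p62 (SE 0.26; adjusted p = 0.0106) and fell by 1.07 on average (adjusted p = 0.00146). Of all genes 7.1%, 21.7% and 35% were called in these comparisons, and of the 28 further genes Car12 and Ace were the 2 called on average. With normal p62 this call was lost without any 1 of the HD_p62WT or NT_p62WT mice, HD_p62KO replicate 3 or NT_p62KO replicate 1 or 2 (highest adjusted p 0.153), and with the replicate number as a block (adjusted p = 0.0771). The average held in each of the 12 omissions (adjusted p of at most 0.0051). Ace fell by 0.68 on average (SE 0.22; adjusted p = 0.0301), a call lost without HD_p62KO replicate 3, HD_p62WT replicate 3, NT_p62KO replicate 2 or 3, or NT_p62WT replicate 1 or 3 (highest adjusted p 0.0745), and without the 3 arrays of small spread (adjusted p = 0.105). Striatal projection neuron markers fell in the same mice, 10 of 12 on average with 2 that rose, among them Penk, which fell by 0.60 (SE 0.047; adjusted p = 1.1e-05). Their part in the values of Car12 and Ace was not tested.

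Markers of the neighbouring cell types were set beside Ttr in the same way. None of these lists had a gene called on the Ttr slope within groups (limma). With 0.0052% of all genes called there, a lack of calls in lists this short says little. Over all genes 53.3% had a positive slope and 3.71% an unadjusted p below 0.05. Of 17 ependymal genes, which build the ciliated lining of the ventricle, 15 had a positive slope and 2 an unadjusted p below 0.05. Of 16 meningeal and stromal fibroblast genes 13 were positive and 6 had an unadjusted p below 0.05, with Igf2, a growth factor made by plexus stroma and meninges, at 0.31 ± 0.054 (adjusted p = 0.208). Endothelial genes were positive in 4 of 9, striatal projection neuron genes in 3 of 12, cortical excitatory neuron genes in 3 of 10 and thalamic and septal neuron genes in 4 of 9, with 0 at an unadjusted p below 0.05 in each. Beside the 3.71% of all genes, 0 in lists of 9 to 12 genes does not set them apart. The brightest genes had slopes of 0.05 ± 0.04 for ependymal Rarres2, -0.01 ± 0.03 for the collagen gene Col1a1, 0.05 ± 0.03 for endothelial Slco1c1, -0.01 ± 0.02 for Penk, -0.02 ± 0.03 for cortical Lamp5 and 0.05 ± 0.11 for Zic1 of thalamus and septum.

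The means of these lists were also set against Ttr. The meningeal mean correlated with Ttr at r = 0.778 and rho = 0.748 (permutation p = 0.0111 for r, adjusted over 8 measures), and at 0.652 without the 2 farthest mice. The ependymal mean had r = 0.665 and rho = 0.615 (permutation p = 0.0543, adjusted). Taken gene by gene, the median r with Ttr was 0.221 in the meningeal list and 0.408 in the ependymal list. Within the meningeal list Igf2 had r = 0.838 and Igfbp2 0.779, while Col1a1 had -0.11 and Col3a1 0.12. The mean of that list therefore does not stand for each of its genes. Endothelial, striatal, cortical and thalamic or septal means had r of 0.343, -0.03, -0.10 and 0.10, and the spread of each array had 0.145 (adjusted permutation p from 0.541 to 0.934). Across the 12 mice the mean of the 10 members ran from -0.86 to 1.28 around its average. The ependymal mean ran from -0.13 to 0.15 and the meningeal mean from -0.15 to 0.18. Means of the neighbouring regions ranged more widely, from -0.44 to 0.54 for cortical and from -0.43 to 0.77 for thalamic and septal genes, with both ends in non-transgenic mice for the latter. In non-transgenic mice the endothelial mean lay at -0.07 to -0.004 in NT_p62WT and 0.06 to 0.14 in NT_p62KO. Of its 9 genes 3 had all NT_p62KO mice above the NT_p62WT mice, as had 3.88% of all genes. An unadjusted p below 0.05 was found for 1 of 9, against 3.32% of all genes, and 0 were called. Between the HD groups, the thalamic and septal mean lay at -0.39 to -0.11 in HD_p62WT and 0.01 to 0.31 in HD_p62KO. Of its genes 3 of 9 had an unadjusted p below 0.05, as had 2.88% of all genes. The striatal mean lay at -0.21 to -0.20 in HD_p62WT and -0.36 to -0.28 in HD_p62KO. Of its 12 genes 6 had all HD_p62KO mice below the HD_p62WT mice, as had 4.11% of all genes. An unadjusted p below 0.05 was found for 0 of them. The part of these lists in the p62 comparisons was not tested.

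**Figure D5:**
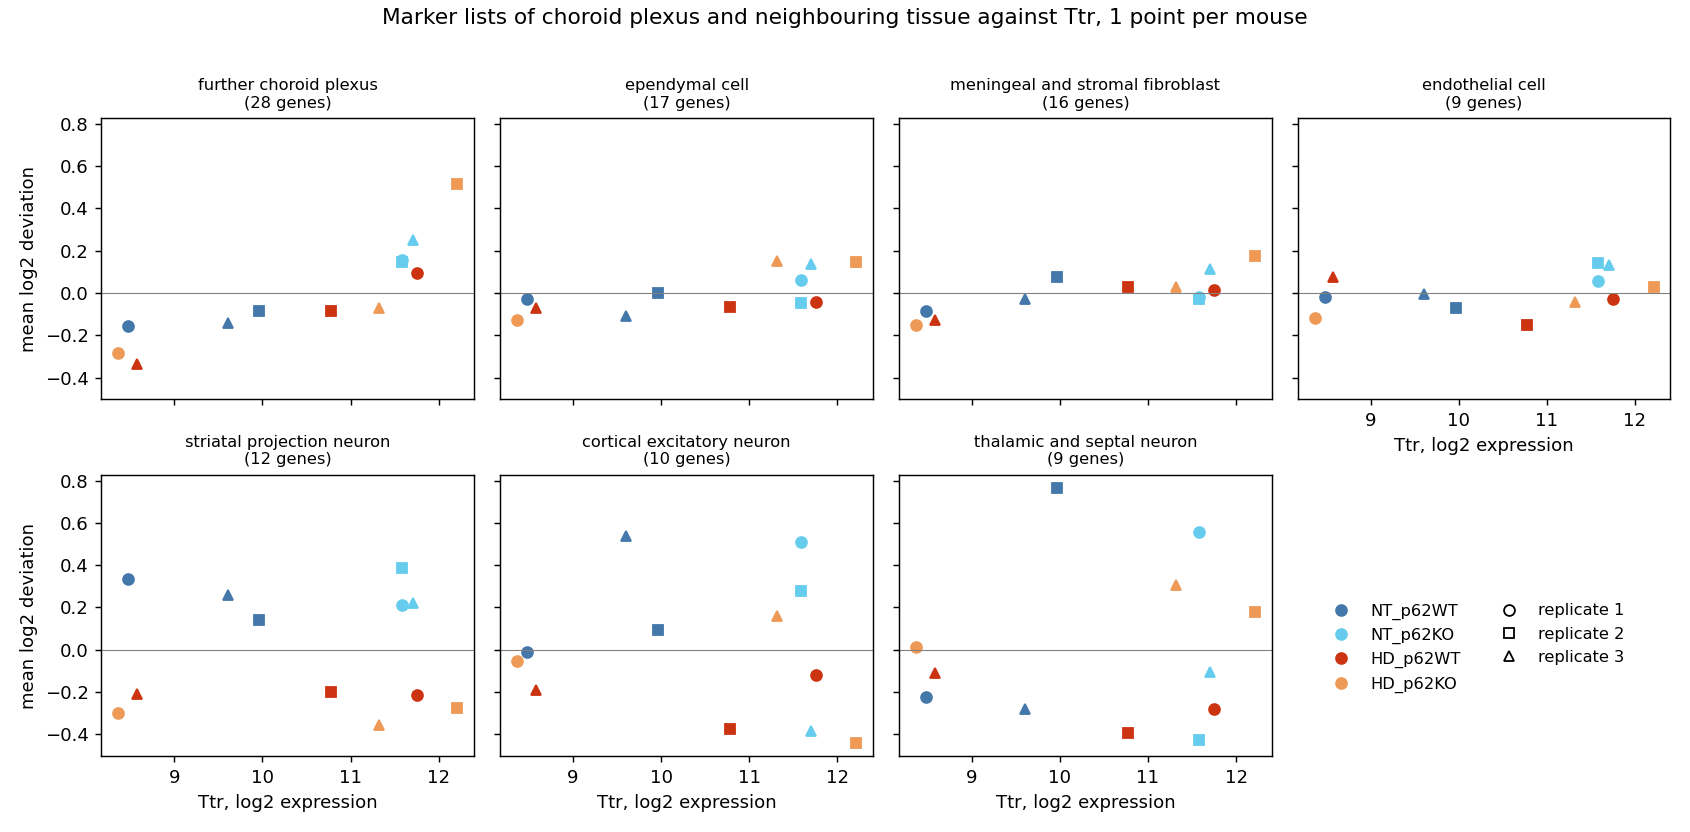
Mean deviation of each marker list from its average over the 12 mice (y axis, log2) against the log2 value of Ttr (x axis), coloured by group. The further choroid plexus genes followed Ttr (r = 0.867), and the striatal projection neuron mean did not track it (r = -0.03).

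Among all genes outside the 10, those most like Ttr over the 12 mice were F5 (r = 0.939), Ecrg4 (0.907), Calml4 (0.906), Lbp (0.893), Rrh (0.868), Ccdc171 (0.865), Cldn1 (0.862), Trpm3 (0.855), Sulf1 (0.848) and Igf2 (0.838). F5, Calml4, Cldn1, Trpm3 and Sulf1 were on the list of further plexus genes. Lbp encodes the lipopolysaccharide binding protein, and Ecrg4 a secreted peptide precursor. F5 was at 7.44 to 7.66 in NT_p62WT, 8.32 to 8.43 in NT_p62KO, 7.48 to 8.42 in HD_p62WT and 7.31 to 9.10 in HD_p62KO, with the highest value again in HD_p62KO replicate 2. Passing over 1 predicted gene, the 5 genes with the lowest r were Esr1 (-0.880), encoding estrogen receptor alpha, Knop1 (-0.854), Fes (-0.832), Vmn2r65 (-0.781) and Olfr357 (-0.763). Their values spanned 0.32 to 0.48 on the log2 scale over the 12 mice, against 1.79 for F5 and 3.85 for Ttr. Narrow spans also occurred among the genes most like Ttr, with 0.42 for Rrh and 0.84 for Ccdc171.

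Taking the Ttr value of each mouse into the fit changed which genes were called for HD. With normal p62 the count of all genes called went from 1366 to 656, of which 641 were shared. Without p62 it went from 4172 to 4265, of which 3710 were shared, and for the average HD effect from 6728 to 6488, of which 6345 were shared. For p62 loss in non-transgenic mice Sqstm1 remained the 1 gene called. The covariate also takes 1 residual degree of freedom, and the part of either in these counts was not tested.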

How the data were processed

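Total RNA (100 ng) from striatum of 12 mice was hybridised to whole-transcript Affymetrix arrays (per the labels). The authors deposited 1 log2 value for each probe set and array. The submitters' processing notes name RMA, with version and settings not given in the sources used here. This method normalizes between arrays and shrinks differences of dim probe sets. The platform table gave a single symbol to 19942 of 24055 probe sets, several to 1225 and no entry to 2888. The probe set with the highest mean was kept for each of 470 genes with more than 1, leaving 19248 genes.

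Groups and replicate numbers came from the sample titles, which call the samples biological replicates. Each was taken as 1 mouse, so a p-value reflects only how far these samples spread. limma 3.58.1 (R 4.3.3) was run on all 12 arrays with 4 group means (8 residual and 4.14 prior degrees of freedom). Contrasts were the HD effect and the p62 effect in each background, their averages and the interaction, with Benjamini-Hochberg adjustment over all genes and a threshold of 0.05. A separate fit added the log2 value of Ttr to the group means. Correlations used 100000 permutations (scipy 1.17.1), and exact permutation for 6 mice.

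The members and lists were chosen with earlier results of these data known. Named genes were the 10 members, per list up to 4 called on the Ttr slope and the brightest not called, and the 10 highest and 5 lowest correlations with Ttr outside the members, passing over predicted genes (1 at the low end). The fits were first tested on simulated data. The alternatives were other normalizations and probe set rules, filters on dim genes, variance and weight options, thresholds, replicate block, fewer groups and leaving out each mouse. Array spread or Ttr as a covariate in the group comparisons, and omission of 3 arrays of small spread (HD_p62KO replicate 1, HD_p62WT replicate 2 and NT_p62KO replicate 3), were chosen after seeing the data.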

Additional observations from a re-analysis of the deposited data

How the results depend on the processing

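Of 460 recomputed answers to a comparison 404 were the same, and of 1065 single-gene values 1004 were. A difference or slope was the same if it kept its direction and its side of the threshold. A count was the same within a set fold limit, and a correlation if it moved by less than the SD of the members' correlations with Ttr. Some values could not move. The Ttr difference for p62 loss in non-transgenic mice stayed at 2.27 whichever HD mouse was left out, since it uses only the means of the non-transgenic groups. For members called in the HD comparison with normal p62, only the 2 groups compared or leaving out the 3 arrays of small spread gave 1 (Clic6), and omission of single mice 0 to 1. Without p62, array weights, leaving out those 3 arrays and Ttr as a covariate each gave 1 (Clic6), and single omissions 0 to 1. There the Ttr difference reversed to 0.18 without the 3 arrays and ran from -1.78 to 0.14 over single omissions. For p62 loss in non-transgenic mice only the 2 groups compared gave 2 members called. Under these alternatives, the share of all genes called in a group comparison was counted only with Ttr as a covariate. In HD mice the Ttr difference for p62 loss ran from -0.63 to 1.40 over single omissions. For the average HD effect 0 members were called without genes below the 50th percentile (which leaves out Clic6), at a threshold of 0.01 and with array spread as a covariate, and 0 to 1 over single omissions. The Ttr difference there reversed to -0.042 after quantile normalization and to -0.72 with array spread as a covariate, and ran from -0.38 to 0.58 over single omissions.

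On the Ttr slope, members called were 3 without genes below the 25th percentile, 2 without those below the 50th, 2 with trended and robust variances, 2 at a threshold of 0.1, 5 with no group means, 0 without the 3 arrays of small spread and 0 to 3 over single omissions. All genes called under these settings were 6, 4, 5, 3, 9 and 0, then 0 to 6, and 16 with the mean of the 10 members as covariate. Further choroid plexus genes called were 2, 1, 2, 1 and 2 under the settings in that order that gave any, 8 with the mean of the 10 members and 0 to 2 over single omissions. The 50th percentile lies at a mean level of 7.81, and that filter keeps only 4 of the 10 members. It leaves out Clic6, Slc4a5, Aqp1, Cldn2, Kl and Otx2, so its 2 calls come from fewer members than the other counts. The slope of Kcnj13 stayed between 0.87 and 1.00 over single omissions, and its adjusted p without the 3 arrays was 0.268 (limma). With Ttr as a covariate, p62 differences in non-transgenic mice reversed for Clic6 (-0.15), Cldn2 (-0.11), Otx2 (-0.30) and Sostdc1 (-0.075), and the average p62 difference reversed for Cldn2 (-0.038). Apart from fewer genes or mice in a fit, the cause of these changes was not tested.

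With the replicate number as a block, Ttr differed by 2.27 for p62 loss in non-transgenic mice (limma, adjusted p = 0.999783), and the counts of members called did not change in any comparison. Car12 lost its call with normal p62 under the block (adjusted p = 0.0771). Deviations of same-numbered mice of different groups correlated at -0.34 to 0.21, so the numbers were not taken as pairs, and of the 12 mice 2 correlated best with a mouse of their own number. Scanner files were not used here, so no value could be set against background.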

Other observations

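When the mean of the 10 members replaced Ttr beside the group means, 16 genes outside the members were called, all with a positive slope (limma, 0.0832% of 19238 genes). Of these, 8 were on the list of further choroid plexus genes: F5 (slope 0.78, adjusted p = 9.86e-05), Calml4, Slc13a4, Steap1, Cldn1, Trpm3, Car12 and Ace. Igf2, on the meningeal and stromal list, had a slope of 0.72 (adjusted p = 0.000888). The 7 on no list were Ecrg4 (0.77, adjusted p = 0.000764), Lbp, Prr32, Tc2n, Steap2, Pcolce and Gmnc, all named after their values were seen. Steap1 and Steap2 encode membrane proteins of the STEAP family, Pcolce an enhancer of procollagen processing, and Gmnc the geminin-related regulator of multiciliated cell formation. These values describe which genes moved with the marker set in these 12 mice, and the fit was not repeated without single mice.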
